A study of Mus musculus with 78 samples.

Results

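Livers of 12-month-old female UM-HET3 mice kept on calorie restriction for 8 months were compared with livers of control mice of the same strain, age and sex. The comparison was chosen by its columns in the deposited gene count table, 3 calorie-restricted (CR) libraries and 3 control libraries. These are 6 of the 78 liver libraries of the series, and 13639 genes passed the filter on low counts at 12 months. The CR mice received the Purina 5LG6 diet restricted by 40% until they were killed, and the controls received the same diet without restriction. UM-HET3 mice are a genetically mixed stock derived from inbred strains, in which each animal has a genotype of its own. The series as a whole measured how mouse liver responds to diets, compounds and mutations that extend lifespan. Groups set beside the comparison were 12-month females given acarbose at 1000 ppm or rapamycin at 14 ppm for 8 months, 12-month males on 40% restriction for 8 months with 12-month control males, and 6-month females on 40% restriction for 2 months with 6-month control females. Each group held 3 libraries, labelled as biological replicates. Libraries are called CR1 to CR3 and CON1 to CON3 after their replicate numbers, which do not pair animals between groups. The labels give neither the hour of killing nor the time since the last meal.

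Calorie restriction lowers energy intake without malnutrition and is the most widely studied diet that lengthens life in rodents. In liver, feeding and fasting set the activity of hormone-controlled programmes of glucose, lipid and amino acid metabolism, and they also set the phase of the hepatic circadian clock. That clock is a feedback loop in which CLOCK, NPAS2 and ARNTL (BMAL1) drive transcription of the Per, Cry, Nr1d and PAR-bZIP genes through E-boxes, while PER and CRY proteins inhibit CLOCK and ARNTL. NR1D1 and NR1D2 compete with ROR receptors to repress Arntl, Npas2, Clock, Nfil3 and Cry1. A restricted animal usually eats its ration soon after it is given, so the phase of its liver clock can differ from that of a freely fed animal.

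The 6 libraries held 17742947 to 19860614 assigned counts, within the range of the 24 libraries of 12-month mice (15827608 to 22220278). The first principal component of log2 CPM (counts scaled to the size of each library), with 34.6% of the variance, separated the CR libraries (29.1 to 33.1) from the control libraries (-40.5 to -26.1). The second, with 26.8%, ran from CR1 at -40 to CR3 at 47.1. Markers of hepatocytes summed to 155207 to 212406 CPM in CR livers and 138430 to 149591 CPM in control livers. Summed CPM of marker lists, here and below, are scaled to library totals alone, unlike CPM of single genes. Markers of the adrenal gland stood far above the other libraries in CR1, and the clock genes of CON3 lay apart from those of CON1 and CON2. Both patterns are described below with their values, and counts are given with and without these libraries.

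Of 13639 genes tested, 644 (4.72%) changed at an adjusted p under 0.05 in edgeR's quasi-likelihood test with Benjamini-Hochberg adjustment. In CR livers 279 genes (2.05%) rose and 365 (2.68%) fell, and 309 of the 644 changed by at least 2-fold. The median absolute log2 fold change of the called genes was 0.97, and the median over all genes tested was -0.02. All 3 CR values lay above all 3 control values in 1299 genes (9.52%) and below them in 1651 genes (12.1%). Single libraries weighed on the count: without CR1, CR2, CON1 or CON2 it was 352, 186, 235 and 269 genes, while without CR3 or CON3 it was 659 and 477. Genes up and down were 189 and 163 without CR1, 108 and 78 without CR2, and 292 and 367 without CR3. They were 102 and 133 without CON1, 122 and 147 without CON2, and 211 and 266 without CON3. Counts of list members in these fits, given below, stand against these numbers. No gene called with all libraries changed sign in any of these fits, and 128 genes, 68 up and 60 down, were called with all libraries and in each of the 6 fits that left one out. For named genes whose call ended when a single library was left out, those libraries are given with the adjusted p of the reduced fits.

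**Figure D1:**
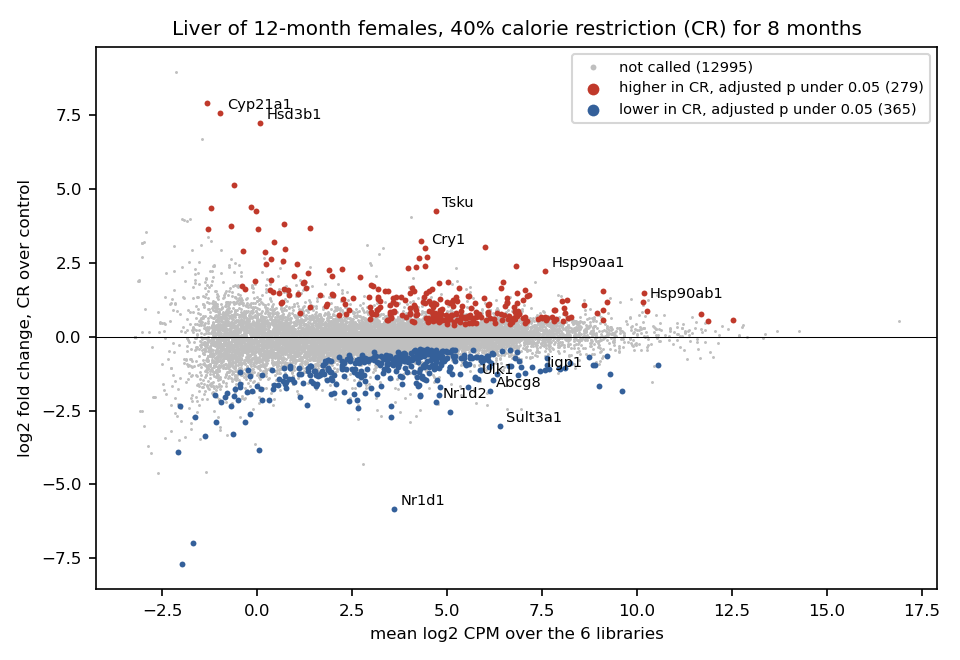
Log2 fold change (CR over control, y axis) of each gene tested in livers of 12-month females against its mean log2 CPM over the 6 libraries (x axis), with called genes in colour. The 279 genes that rose and the 365 that fell spread over low and high expression. Cyp21a1 and Hsd3b1, at the top left, are adrenal marker genes whose counts came mainly from CR1.

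Genes of the clock were among those with the largest changes. Nr1d1 encodes the haem-binding repressor REV-ERB alpha, and it had 1.51, 2.13 and 1.42 CPM in CR livers, against 106, 146 and 37.9 CPM in control livers. Every CR liver was far below every control liver, the largest fall among named genes (log2 fold change -5.84 ± 0.73, adjusted p = 0.000431 in edgeR's quasi-likelihood test). Its paralogue Nr1d2 had 12.6, 11.8 and 13.3 CPM in CR livers, against 69.6, 78.1 and 28.5 CPM in control livers, again without overlap (-2.23 ± 0.57, adjusted p = 0.0308). Cry1 encodes a cryptochrome that inhibits CLOCK and ARNTL, and it had 62.1, 69.2 and 56.9 CPM in CR livers, against 5.18, 5.40 and 13.2 CPM in control livers. All CR livers stood above all control livers, and within the CR group the values were close to each other (log2 fold change 2.99 ± 0.29, adjusted p = 1.59e-05). Per2, a period gene that also responds directly to glucocorticoids, had 69.4, 53.1 and 15.8 CPM in CR livers, against 10.1, 12.1 and 4.85 CPM in control livers, with CR3 close to the control range (2.35 ± 0.66, adjusted p = 0.0473). The calls of Nr1d1 and Cry1 held without each single library. The call of Nr1d2 ended without CR1, CR2, CR3, CON1 or CON2 (adjusted p = 0.073 to 0.123). That of Per2 ended without CR1, CR2, CON1, CON2 or CON3 (adjusted p = 0.0925 to 0.153).

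Of the 19 clock genes measured, 3 rose and 2 fell, against 2.05% and 2.68% of all genes. The other 14 did not pass, and in many of them the control group was split. Dbp, a PAR-bZIP activator with a very deep daily rhythm, had 1.74, 1.66 and 5.61 CPM in CR livers, against 58.5, 116 and 0.774 CPM in control livers (-4.30 ± 1.78, adjusted p = 0.194). CON3 lay below all CR livers, while CON1 and CON2 lay far above them. Arntl, the partner of CLOCK, had 33.7, 29.4 and 26.8 CPM in CR livers, against 4.48, 2.63 and 30.9 CPM in control livers, with CON3 among the CR livers and CON1 and CON2 well below (1.25 ± 1.09, adjusted p = 0.576). Npas2, a paralogue of Clock, had 5.08, 8.05 and 6.49 CPM in CR livers, against 1.27, 0.956 and 16.4 CPM in control livers, with CON3 above every other library (0.08 ± 1.13, adjusted p = 0.979). Nfil3, a repressor that opposes Dbp, had 42.4, 51.4 and 51.7 CPM in CR livers, against 10.1, 15.2 and 57.1 CPM in control livers (0.82 ± 0.66, adjusted p = 0.533). Per3 had 17.1, 13.0 and 9.85 CPM in CR livers, against 16.9, 25.5 and 0.619 CPM in control livers (-0.11 ± 1.19, adjusted p = 0.975). Tef, a PAR-bZIP factor like Dbp, had 109, 114 and 106 CPM in CR livers, against 111, 143 and 27.4 CPM in control livers (0.23 ± 0.73, adjusted p = 0.904). In 16 of the 19 clock genes CON3 lay outside the range of the other 5 control libraries of 12 months, females and males pooled, above it in 6 genes and below it in 10. The share over all genes is not given here, nor is the same count for another control library.

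Per1 had 29.4, 48.3 and 23.8 CPM in CR livers, against 20.5, 8.36 and 2.79 CPM in control livers (log2 fold change 1.67 ± 1.07, adjusted p = 0.418). The remaining clock genes were Cry2 (0.65 ± 0.44, adjusted p = 0.441), Clock (0.44 ± 0.48, adjusted p = 0.671), Rora (0.33 ± 0.19, adjusted p = 0.356), Hlf (0.56 ± 0.30, adjusted p = 0.319), Ciart (0.50 ± 1.53, adjusted p = 0.897), Bhlhe40 (-0.49 ± 0.53, adjusted p = 0.665) and Bhlhe41 (-3.05 ± 1.39, adjusted p = 0.236). Without CON3, Cry1, Nr1d1 and Nr1d2 were called and Per2 was not, and Arntl had a log2 fold change of 3.07 (adjusted p = 0.211). Without CR1, 2 of the 19 rose and 1 fell, against 1.36% and 1.18% of all genes in that fit, and the same numbers held without CR2, CON1 or CON2. The part of feeding time and of the hour of collection in these values was not tested, since the labels give neither.

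**Figure D2:**
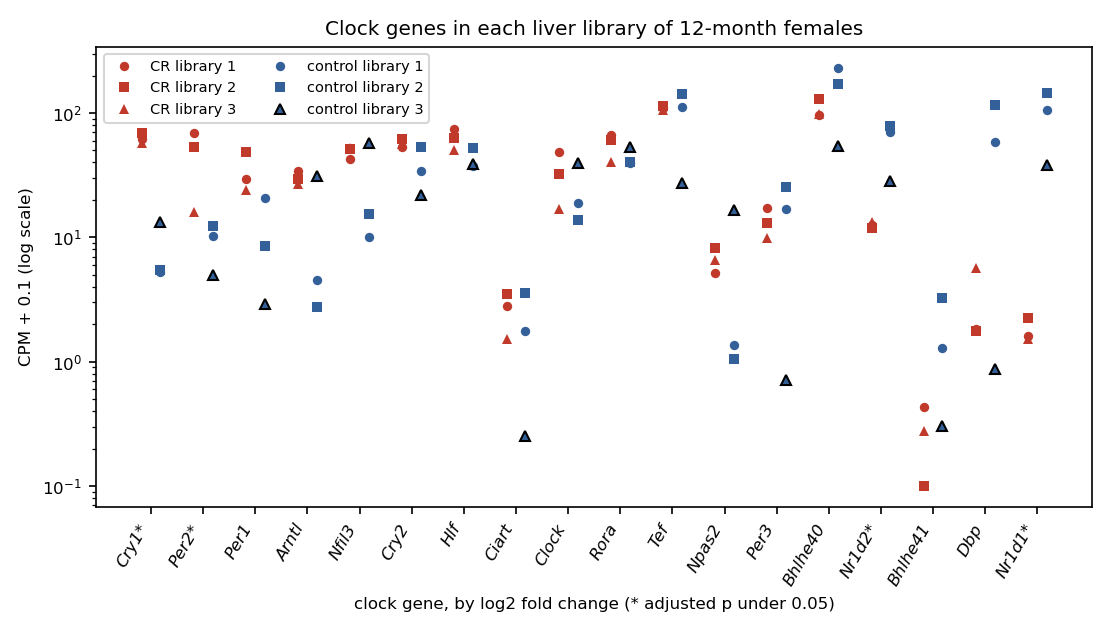
CPM plus 0.1 on a log axis for 18 clock genes in each liver library of 12-month females, CR libraries to the left of control libraries, genes ordered by log2 fold change. CR points cluster tightly for Nr1d1, Nr1d2 and Cry1, while CON3, outlined in black, stands apart from CON1 and CON2 in Dbp, Arntl, Npas2, Nfil3 and Per3.

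The same genes differed between the groups set beside the comparison (CPM here and in every later comparison with 6-month libraries come from the joint fit of both ages, whose scaling differs slightly). Nr1d1 had 1.57, 2.25 and 1.47 CPM in CR females and 1.2, 2.51 and 7.71 CPM in CR males of 12 months, against 110, 153 and 40.1 CPM in control females and 154, 57.6 and 121 CPM in control males. Females given acarbose had 79.2, 138 and 86.8 CPM of Nr1d1 and females given rapamycin had 86.2, 123 and 33.8 CPM, both overlapping the controls. Cry1 had 64.8, 73.2 and 59 CPM in CR females, 52.3, 49.8 and 34.4 CPM in CR males and 42.9, 40 and 46.5 CPM in CR females of 6 months. Acarbose females had 9.12, 8.09 and 8.7 CPM, rapamycin females 18.1, 17 and 15.3 CPM and control females of 12 months 5.41, 5.7 and 14 CPM, all below the CR livers. Dbp varied within groups outside the comparison as well, with 126, 8.04 and 120 CPM in acarbose females, 10.1, 25.4 and 1.19 CPM in rapamycin females and 65.2, 6.35 and 80.4 CPM in control males.

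Promoters of clock genes were searched for the E-box, spelled CACGTG, on both strands of 250 bases before and 50 after each transcription start in RefSeq on GRCm38.p6. It was present in 6 of 21 clock promoters and in 7.15% of all 32851 promoters. The promoter window of Cry1 is shown because Cry1 rose in every CR liver, with the E-box in capitals at position -60 from the start:
Cry1, chr10:85185079-85185144, minus strand: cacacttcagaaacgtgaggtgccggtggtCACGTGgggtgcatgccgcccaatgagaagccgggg
The RORE (TAGGTCA), the element shared by NR1D and ROR receptors, was present in 2.61% of all promoters and in 2 of the 21 clock promoters. A match is a description of the window and says nothing of use by a factor.

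Genes whose hepatic RNA is known to cycle downstream of the clock or of feeding moved in part. Of 18 rhythmic output genes 2 rose and none fell, against 2.05% and 2.68% of all genes. Their median log2 fold change was 0.51, against -0.02 over all genes. Without CON1 that median was 1.07. Lonrf3, which carries a RING finger, had 6.26, 4.201 and 3.36 CPM in CR livers, against 0.615, 0.717 and 2.58 CPM in control livers (log2 fold change 1.83 ± 0.45, adjusted p = 0.0227 in edgeR's quasi-likelihood test). Tspan4, a tetraspanin of the cell membrane, had 64.4, 69.9 and 92.8 CPM in CR livers, against 33.2, 29.3 and 25.3 CPM in control livers (1.37 ± 0.35, adjusted p = 0.0272). In both genes the CR livers stood above the control livers, CON3 being the nearest for Lonrf3. The call of Lonrf3 ended without CR1, CR2, CON1 or CON2 (adjusted p = 0.0614 to 0.11), and its log2 fold change was 2.78 without CON3. That of Tspan4 ended without CR2, CR3, CON1, CON2 or CON3 (adjusted p = 0.071 to 0.0919).

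The gene group with the most calls was that of heat shock chaperones, which fold new and damaged proteins in cytosol, nucleus and mitochondria. Of 28 measured members 10 rose and none fell, against 2.05% of all genes up. The median log2 fold change of the 28 was 0.76. In 18 of them the groups did not overlap, upwards in each, against 9.52% of all genes upwards. Hsp90aa1 and Hsp90ab1 encode the inducible and the constitutive cytosolic HSP90, which holds steroid receptors and kinases ready for their ligands. Hsp90aa1 had 452, 452 and 362 CPM in CR livers, against 72.2, 74.0 and 126 CPM in control livers. Hsp90ab1 had 1529.9, 1775 and 1925 CPM in CR livers, against 598, 789.6 and 920.0 CPM in control livers. All CR livers exceeded all control livers for both genes, by 2.22 ± 0.40 (adjusted p = 0.00408) for Hsp90aa1 and 1.18 ± 0.23 (adjusted p = 0.0058) for Hsp90ab1 on the log2 scale. Co-chaperones of HSP90 were among the calls. Fkbp4, the immunophilin FKBP52 of steroid receptor complexes, had 388, 437 and 503 CPM in CR livers, against 142, 190.1 and 224 CPM in control livers (1.26 ± 0.23, adjusted p = 0.00369). Stip1 (HOP), which links HSP70 to HSP90, had 161, 156 and 135 CPM in CR livers, against 52.1, 59.0 and 70.1 CPM in control livers (1.32 ± 0.26, adjusted p = 0.00685). Cacybp, which binds SIAH and HSP90, had 52.5, 48.8 and 49.5 CPM in CR livers, against 19.5, 22.7 and 26.4 CPM in control livers (1.14 ± 0.20, adjusted p = 0.00335). In none of the 3 did the groups overlap.

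Hspa4l, a nucleotide exchange factor of HSP70, had 45.1, 42.7 and 40.8 CPM in CR livers, against 10.0, 12.4 and 19.7 CPM in control livers (log2 fold change 1.61 ± 0.27, adjusted p = 0.0023 in edgeR's quasi-likelihood test). Hspb1, the small heat shock protein HSP27, had 30.02, 40.9 and 81.5 CPM in CR livers, against 7.11, 8.65 and 8.00 CPM in control livers, the highest value in CR3 (2.68 ± 0.64, adjusted p = 0.0231). The other called members were Ahsa1, an activator of the HSP90 ATPase (0.86 ± 0.21, adjusted p = 0.0211), Chordc1 (0.94 ± 0.27, adjusted p = 0.0442) and Hspd1, the mitochondrial HSP60 (0.58 ± 0.14, adjusted p = 0.023). Members that did not pass included Hspa8 (1.17 ± 0.35, adjusted p = 0.0594), Hsph1 (1.60 ± 0.53, adjusted p = 0.0902), Hspe1, the partner of HSP60 (0.80 ± 0.26, adjusted p = 0.0856), Dnajb1 (0.15 ± 0.32, adjusted p = 0.849), Bag3 (-0.26 ± 0.44, adjusted p = 0.806) and the transcription factor Hsf1 (-0.00 ± 0.18, adjusted p = 0.999). Without CR1 8 of the 28 rose, without CR2, CON1 or CON2 6 did, and with DESeq2 15 did. Over all genes tested, 189 rose without CR1, 108 without CR2, 102 without CON1, 122 without CON2 and 497 with DESeq2. The calls of Hsp90aa1, Hsp90ab1, Fkbp4, Stip1, Cacybp and Hspa4l held without each single library. That of Hspb1 ended without CR2, CR3, CON1, CON2 or CON3 (adjusted p = 0.0557 to 0.0934). That of Ahsa1 ended without CR2, CR3, CON1 or CON2 (adjusted p = 0.0557 to 0.0981). Those of Chordc1 and Hspd1 ended without CR1, CR2, CON1 or CON2 (adjusted p = 0.133 to 0.161 for Chordc1 and 0.058 to 0.124 for Hspd1).

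The heat shock element, searched on both strands as GAA, any 2 bases, TTC, any 2 bases and GAA, was present in 5 of 29 promoters of this list and in 0.603% of all promoters. The genes that held it were Chordc1, Hspd1, Hspe1 and Hsph1. Hspd1 and Hspe1 stand head to head and share the element, which is shown because Hspd1 passed the test and Hspe1 did not. Capitals mark 2 overlapping matches:
Hspd1, chr1:55088029-55088106, minus strand: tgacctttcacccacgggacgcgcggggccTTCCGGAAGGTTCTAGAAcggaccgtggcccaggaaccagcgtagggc

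Chaperones of the endoplasmic reticulum (ER) formed a separate list. Of 25 members 1 rose and none fell, against 2.05% and 2.68% of all genes, with a median log2 fold change of 0.18. The gene called was Hyou1, an ER relative of HSP70, with 224, 288 and 169 CPM in CR livers, against 109, 67.7 and 88.2 CPM in control livers (1.36 ± 0.38, adjusted p = 0.042), and this call ended without CR1, CR2, CON1, CON2 or CON3 (adjusted p = 0.0776 to 0.169). Hspa5 (BiP), the main ER HSP70, had 819, 937 and 649.7 CPM in CR livers, against 588, 411 and 558 CPM in control livers, which did not overlap but did not pass (0.63 ± 0.31, adjusted p = 0.266).

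Interferon-stimulated genes lay lower in CR livers. Of 37 measured members 7 fell and none rose, against 2.68% of all genes down. The median log2 fold change of the 37 was -0.73, and 36 of them were negative. In 20 the groups did not overlap, downwards in each, against 12.1% of all genes downwards. Iigp1, an immunity-related GTPase, had 131, 102 and 121 CPM in CR livers, against 250.2, 244 and 301 CPM in control livers (log2 fold change -1.17 ± 0.19, adjusted p = 0.00171). Gbp7, a guanylate-binding protein, had 11.5, 8.70 and 6.20 CPM in CR livers, against 24.3, 23.8 and 20.8 CPM in control livers (-1.38 ± 0.26, adjusted p = 0.00523). Herc6, the mouse ISG15 ligase, had 7.11, 6.03 and 6.02 CPM in CR livers, against 17.0, 13.5 and 14.6 CPM in control livers (-1.23 ± 0.22, adjusted p = 0.00369). For all 3 genes every CR liver lay well below every control liver. Xaf1, a pro-apoptotic antagonist of XIAP, had 1.84, 2.07 and 5.43 CPM in CR livers, against 14.97, 10.2 and 10.3 CPM in control livers (-1.94 ± 0.44, adjusted p = 0.0154). Zbp1, a sensor of Z-form nucleic acids, had 2.16, 3.19 and 6.31 CPM in CR livers, against 18.7, 14.6 and 10.3 CPM in control livers (-1.91 ± 0.41, adjusted p = 0.0116), and in both genes CR3 was the highest of the CR livers. Gbp3 (-1.65 ± 0.38, adjusted p = 0.0174) and Parp14 (-1.03 ± 0.22, adjusted p = 0.0111) were called as well.

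Members of the interferon list that did not pass included Irf7 (log2 fold change -0.91 ± 0.34, adjusted p = 0.139), Isg15 (-0.62 ± 0.33, adjusted p = 0.315), Mx2 (-0.08 ± 0.25, adjusted p = 0.905) and Oasl1 (0.13 ± 0.37, adjusted p = 0.89). Antigen presentation genes had 1 of 17 called, a fall, against 2.68% of all genes down. This was Tap1, the peptide transporter, with 12.8, 13.4 and 23.96 CPM in CR livers, against 30.8, 48.3 and 22.3 CPM in control livers (-1.02 ± 0.29, adjusted p = 0.0495), whose groups overlapped. Without CR3 3 of the 17 fell, without CON3 2, and without CR1, CR2, CON1 or CON2 none. The call of Tap1 ended without CR1, CR2, CON1 or CON2 (adjusted p = 0.0934 to 0.241), and its log2 fold change was -0.67 without CON2. Without CR1 4 of the 37 interferon genes fell and their median was -0.55, without CR3 10 fell and it was -0.94, without CR2 3 fell, and without CON1 4 did. The calls of Iigp1, Gbp7 and Herc6 held without each single library. That of Xaf1 ended without CR1, CR2 or CON1 (adjusted p = 0.065 to 0.0897). That of Zbp1 ended without CR1, CR2 or CON1 (adjusted p = 0.0558 to 0.0673). That of Parp14 ended without CR2 (adjusted p = 0.0551). That of Gbp3 ended without CR1, CR2, CON1 or CON2 (adjusted p = 0.0524 to 0.0926).

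**Figure D3:**
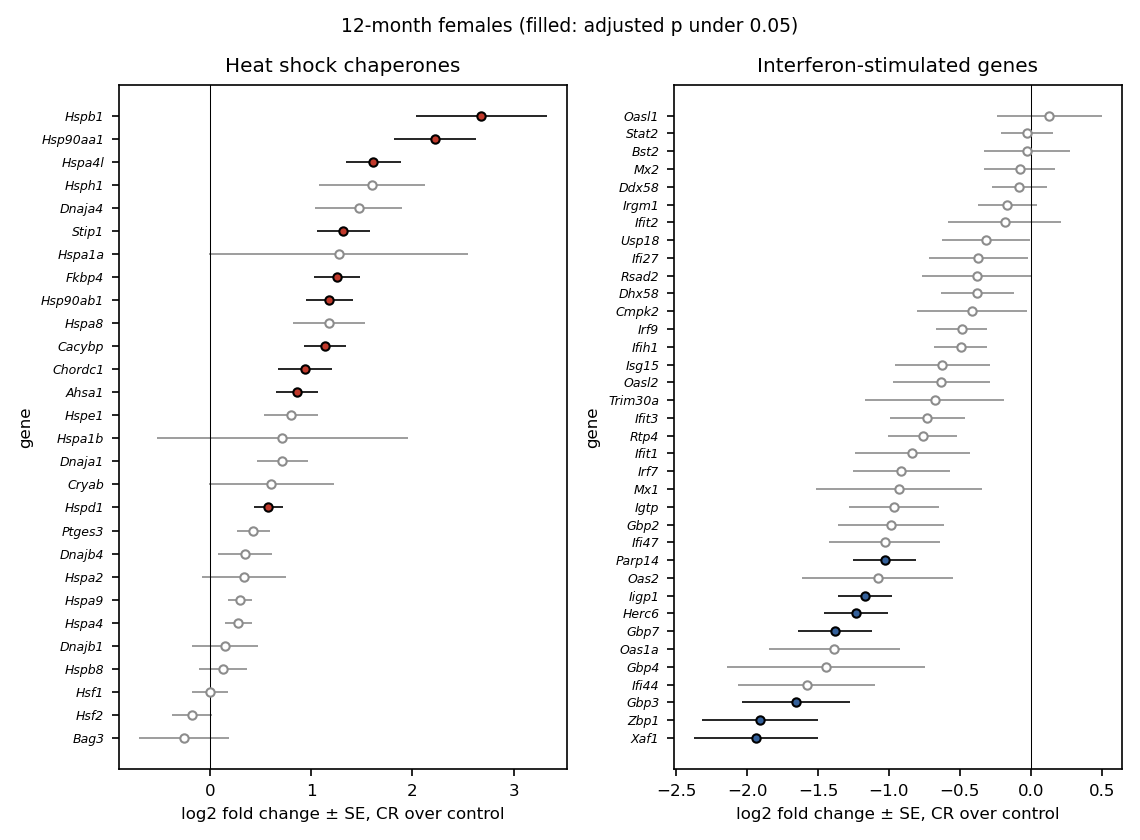
Log2 fold change ± SE (x axis, CR over control, n = 3 libraries per group) of 28 heat shock chaperones (left) and 36 interferon-stimulated genes (right) in 12-month females; filled points passed at an adjusted p under 0.05. The 10 called chaperones lie above 0 and the 7 called interferon-stimulated genes lie below it.

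The interferon-stimulated response element (ISRE), searched on both strands as GAAA, any 2 bases and GAAA, was present in 16 of 29 promoters of the interferon list and in 3.44% of all promoters. Promoters of 2 called genes are shown, with the element in capitals on its reverse strand:
Gbp7, chr3:142530253-142530322, plus strand: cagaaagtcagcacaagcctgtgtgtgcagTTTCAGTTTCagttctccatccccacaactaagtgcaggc
Gbp3, chr3:142559969-142560043, plus strand: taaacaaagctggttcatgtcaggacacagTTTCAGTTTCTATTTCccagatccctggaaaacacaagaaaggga
Gbp7 carries 1 match at position -53 from its start and Gbp3 2 overlapping matches.

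Markers of Kupffer, T and NK, and B and plasma cells also had negative median log2 fold changes. Markers of Kupffer cells, the resident macrophages of liver, summed to 244 to 366 CPM in CR livers and 373 to 661 CPM in control livers. Their log2 fold changes were negative in 12 of 12, with a median of -0.48 and none called (2 at an unadjusted p under 0.05, none with DESeq2). T and NK cell markers summed to 5.75 to 7.13 CPM in CR livers and 7.5 to 24.7 CPM in control livers, with 10 of 10 tested negative, a median of -0.88 and none called (1 at an unadjusted p under 0.05, none with DESeq2). B and plasma cell markers summed to 25.6 to 47.9 CPM in CR livers and 45.5 to 235 CPM in control livers, the highest value in CON1, and their median was -1.25. These sums are not TMM-scaled. The TMM factors of the joint fit were 1.06, 0.883 and 0.910 for CR1 to CR3 and 1.10, 0.999 and 1.03 for CON1 to CON3. Whether the Kupffer sums and the T and NK sums overlap between groups therefore depends on the scaling. Without CON1 the medians were -0.18 for Kupffer cells, -0.14 for T and NK cells and -0.52 for B and plasma cells, and without CR1 that of Kupffer cells was -0.26. Of 8 tested B cell markers all were negative and 1 fell, against 2.68% of all genes. Cd79b, a subunit of the B cell receptor, had 0.706, 0.592 and 1.48 CPM in CR livers, against 3.73, 2.58 and 2.06 CPM in control livers (-1.60 ± 0.42, adjusted p = 0.0303). This call ended without CR1, CR2, CON1 or CON2 (adjusted p = 0.0659 to 0.152). In bulk liver, fewer cells of a type and less RNA per cell cannot be told apart, and the part of these cells in the interferon result was not tested.

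Stress and hormone responses included genes that glucocorticoids induce. Of 18 such genes 2 rose and none fell, against 2.05% and 2.68% of all genes. Tsc22d3 encodes GILZ, a glucocorticoid-induced leucine zipper protein, and had 212, 431 and 168 CPM in CR livers, against 45.4, 46.0 and 61.9 CPM in control livers, with no overlap (log2 fold change 2.40 ± 0.34, adjusted p = 0.000623). Dusp1, a phosphatase of MAP kinases that is also glucocorticoid-inducible, had 33.7, 38.6 and 18.8 CPM in CR livers, against 13.8, 10.1 and 7.59 CPM in control livers (1.53 ± 0.35, adjusted p = 0.0179). The call of Tsc22d3 held without each single library. That of Dusp1 ended without CR1, CR2, CON2 or CON3 (adjusted p = 0.0562 to 0.0898).

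In glucose metabolism Phka2, the liver regulatory subunit of phosphorylase kinase, had 12.3, 9.76 and 12.3 CPM in CR livers, against 26.3, 27.2 and 25.7 CPM in control livers, with a narrow spread in both groups and no overlap (log2 fold change -1.20 ± 0.16, adjusted p = 0.000431). None of the 16 gluconeogenesis genes passed in edgeR's test (3 at an unadjusted p under 0.05, 1 called with DESeq2). Pck1, which makes phosphoenolpyruvate, had 1276, 3246 and 1411 CPM in CR livers, against 1539, 1004 and 1033 CPM in control livers (0.73 ± 0.50, adjusted p = 0.453). The call of Phka2 held without each single library.

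In lipid metabolism 2 of 24 lipogenic genes rose and none fell, against 2.05% and 2.68% of all genes. Among those that rose was Agpat2, an acyltransferase of triglyceride synthesis (0.96 ± 0.25, adjusted p = 0.0295), a call that ended without CR2, CR3, CON1, CON2 or CON3 (adjusted p = 0.0598 to 0.12). Srebf1 (0.18 ± 0.28, adjusted p = 0.785), Fasn (-0.43 ± 0.50, adjusted p = 0.689) and Acaca (0.16 ± 0.29, adjusted p = 0.82) did not pass. Plin5 and Plin2 coat lipid droplets and moved in opposite directions. Plin5 had 92.8, 125 and 86.4 CPM in CR livers, against 29.1, 40.1 and 52.5 CPM in control livers (1.32 ± 0.24, adjusted p = 0.00389). Plin2 had 323, 249 and 469 CPM in CR livers, against 644, 715 and 677 CPM in control livers (-0.97 ± 0.27, adjusted p = 0.0426). Of 27 genes of fatty acid oxidation 1 rose and 1 fell, against 2.05% and 2.68% of all genes. Cpt2, the inner mitochondrial carnitine palmitoyltransferase, rose (0.54 ± 0.15, adjusted p = 0.0329). Cpt1a, the outer and rate-setting one, had 178, 170.2 and 167 CPM in CR livers, against 378, 334 and 362 CPM in control livers (-1.06 ± 0.26, adjusted p = 0.0232). None of 26 cholesterol synthesis genes passed (2 at an unadjusted p under 0.05, none called with DESeq2). The call of Plin5 held without each single library. That of Cpt1a ended without CR1, CR2, CR3, CON1, CON2 or CON3 (adjusted p = 0.0537 to 0.0937). That of Cpt2 ended without CR1, CR2, CR3, CON1 or CON2 (adjusted p = 0.0547 to 0.169). That of Plin2 ended without CR1, CR2, CON1, CON2 or CON3 (adjusted p = 0.0852 to 0.201).

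Scd2, a stearoyl-CoA desaturase that liver normally expresses little, had 27.2, 9.47 and 6.25 CPM in CR livers, against 4.26, 2.92 and 3.30 CPM in control livers, most of it in CR1 (2.04 ± 0.46, adjusted p = 0.0148). The call of Scd2 ended without CR1 or CON2 (adjusted p = 0.0645 to 0.107), and its log2 fold change was 1.17 without CR1. Of 29 bile acid and biliary transport genes 2 rose and 2 fell, against 2.05% and 2.68% of all genes. Abcg8 forms with Abcg5 the transporter that moves sterols into bile, and had 30.9, 36.8 and 47.4 CPM in CR livers, against 206, 103 and 102 CPM in control livers, with no overlap (-1.84 ± 0.32, adjusted p = 0.00316). Abcg5 fell as well (-1.35 ± 0.37, adjusted p = 0.037), although these neighbours overlap and the strand of counting is not given. Abcc4, an export pump of the basolateral membrane, had 19.95, 22.6 and 13.3 CPM in CR livers, against 7.38, 6.07 and 5.47 CPM in control livers (1.56 ± 0.27, adjusted p = 0.00314), and Slc51b, a subunit of the bile acid exporter OST, also rose (1.42 ± 0.37, adjusted p = 0.0275). The calls of Abcg8 and Abcc4 held without each single library. That of Abcg5 ended without CR1, CR2, CR3, CON1 or CON2 (adjusted p = 0.0729 to 0.207). That of Slc51b ended without CR1, CR2, CR3, CON1 or CON3 (adjusted p = 0.052 to 0.117).

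Genes of the urea cycle and of amino acid breakdown rose at 4 of 34 members, against 2.05% of all genes. None fell, against 2.68% of all genes, and 2 rose without CON1. Acmsd, which turns an intermediate of tryptophan breakdown away from NAD synthesis, had 67.6, 49.2 and 35.6 CPM in CR livers, against 8.03, 7.46 and 13.3 CPM in control livers, with no overlap (log2 fold change 2.41 ± 0.33, adjusted p = 0.000535). Asl, the argininosuccinate lyase of the urea cycle, had 901, 857 and 983 CPM in CR livers, against 313, 549.6 and 349 CPM in control livers (1.18 ± 0.23, adjusted p = 0.00669). Nags, which makes the activator of carbamoyl phosphate synthesis (0.79 ± 0.18, adjusted p = 0.0173), and Slc25a15, the mitochondrial ornithine carrier (0.81 ± 0.23, adjusted p = 0.0488), were the others. Ahcy, the S-adenosylhomocysteine hydrolase, was the single call among 18 one-carbon genes, against 4.72% of all genes called (0.88 ± 0.23, adjusted p = 0.029). The calls of Acmsd and Asl held without each single library. That of Nags ended without CR3 or CON1 (adjusted p = 0.0525 to 0.093). That of Slc25a15 ended without CR1, CR2, CON1, CON2 or CON3 (adjusted p = 0.0577 to 0.157). That of Ahcy ended without CR1, CR3, CON1 or CON2 (adjusted p = 0.0588 to 0.116).

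Mitochondrial and ribosomal lists lay slightly higher in CR livers. All 77 nuclear respiratory chain genes had positive log2 fold changes, with a median of 0.37, and 1 passed, against 4.72% of all genes. Cycs, cytochrome c, had 145, 143 and 152 CPM in CR livers, against 81.2, 97.4 and 91.3 CPM in control livers (0.70 ± 0.16, adjusted p = 0.0154). Ribosomal protein genes had 76 of 77 positive values and a median of 0.45, and none of them passed (17 at an unadjusted p under 0.05, 1 called with DESeq2). Without CR3 the medians of ribosomal and respiratory genes were 0.12 and 0.13. Without CON2 that of respiratory genes was 0.57. The call of Cycs ended without CON1 (adjusted p = 0.0768).

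Of 30 autophagy and lysosome genes 3 fell and none rose, against 2.68% and 2.05% of all genes. Ulk1, the kinase that starts autophagosome formation, had 26.2, 47.2 and 28.9 CPM in CR livers, against 128, 83.9 and 60.2 CPM in control livers (log2 fold change -1.41 ± 0.29, adjusted p = 0.00821). Wipi1, which binds the phosphoinositide of the forming membrane, had 3.15, 4.02 and 4.90 CPM in CR livers, against 11.6, 7.55 and 10.4 CPM in control livers (-1.30 ± 0.20, adjusted p = 0.00116). Gabarapl1, an ATG8 family protein, had 136, 149 and 237 CPM in CR livers, against 357, 422 and 343 CPM in control livers (-1.10 ± 0.22, adjusted p = 0.0078). In all 3 genes the CR livers lay below the control livers with no overlap, while the median of the list was -0.12. The call of Wipi1 held without each single library. That of Ulk1 ended without CON1 (adjusted p = 0.06). That of Gabarapl1 ended without CR2 (adjusted p = 0.0577).

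Drug-metabolising genes rose at 3 of 31 members and fell at 1, against 2.05% and 2.68% of all genes. None rose without CR2 or CON1, and 1 rose without CON2 or CON3. Cyp2b10, the classical target of the receptor CAR, had 219.8, 227 and 255 CPM in CR livers, against 76.9, 93.0 and 95.8 CPM in control livers (1.40 ± 0.33, adjusted p = 0.0193), a value that is uncertain because of near-identical paralogues. Cyp1a1, a target of the aryl hydrocarbon receptor, had 1.79, 4.38 and 2.07 CPM in CR livers, against 1.01, 1.004 and 0.671 CPM in control livers (1.60 ± 0.39, adjusted p = 0.0216), and Sult1a1, a phenol sulfotransferase, rose by 0.92 ± 0.24 (adjusted p = 0.0294). Cyp2f2, a periportal P450, had 344, 304 and 353 CPM in CR livers, against 492, 634 and 799.9 CPM in control livers, with no overlap (-0.94 ± 0.19, adjusted p = 0.0078). Among 13 pericentral hepatocyte genes 1 fell, and among 12 periportal ones Cyp2f2 alone was called, against 2.68% of all genes down. The pericentral gene was the transcription factor Tbx3, with 20.1, 8.76 and 11.9 CPM in CR livers, against 28.7, 31.4 and 52.9 CPM in control livers (-1.47 ± 0.35, adjusted p = 0.0197). Gstm4, a glutathione transferase, fell (-0.96 ± 0.25, adjusted p = 0.0274). The call of Cyp2b10 ended without CR2, CON1 or CON2 (adjusted p = 0.0577 to 0.0876). That of Cyp1a1 ended without CR2, CON1, CON2 or CON3 (adjusted p = 0.0582 to 0.164). That of Sult1a1 ended without CR1, CR2, CR3, CON1 or CON3 (adjusted p = 0.0548 to 0.149). That of Cyp2f2 ended without CR2 (adjusted p = 0.0557). That of Tbx3 ended without CR2, CR3 or CON3 (adjusted p = 0.0589 to 0.11). That of Gstm4 ended without CR1, CR2, CON2 or CON3 (adjusted p = 0.085 to 0.124).

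Sex-biased liver genes, whose expression follows the pattern of growth hormone release, were mostly not called. Of 21 genes higher in male liver 3 fell and none rose, against 2.68% and 2.05% of all genes. Without CR1 or CR2 1 fell. Nudt7, a peroxisomal coenzyme A hydrolase, had 74.7, 56.0 and 95.9 CPM in CR livers, against 151, 219 and 190.4 CPM in control livers (-1.31 ± 0.26, adjusted p = 0.00685). The others were the complement gene C8b (-1.02 ± 0.24, adjusted p = 0.0193) and Gna14 (-1.27 ± 0.33, adjusted p = 0.0282). Of 24 genes higher in female liver 1 fell, against 2.68% of all genes. This was Sult3a1, a sulfotransferase, with 24.1, 30.1 and 49.98 CPM in CR livers, against 168, 99.9 and 574 CPM in control livers (-3.01 ± 0.71, adjusted p = 0.0219). CON3 was the highest of all for Sult3a1, and without CON3 its log2 fold change was -1.95. Major urinary protein genes, a cluster of near-identical paralogues, had negative values in 17 of 17 members with a median of -1.38. Of the 17, 2 fell, against 2.68% of all genes. Mup10 had 299, 269 and 778 CPM in CR livers, against 978, 1716 and 2158 CPM in control livers (-1.85 ± 0.45, adjusted p = 0.0216). Mup3 was the other (-1.68 ± 0.44, adjusted p = 0.0317). Without CR3 the median was -2.22 and 5 fell, and without CON3 it was -0.88 and 1 fell. Without CR1, CR2 or CON2 none did. The call of Nudt7 ended without CR2 (adjusted p = 0.0548). That of C8b ended without CR1, CR2 or CON3 (adjusted p = 0.0625 to 0.0871). That of Gna14 ended without CR1, CR3, CON1 or CON2 (adjusted p = 0.063 to 0.106). That of Sult3a1 ended without CR1, CR2 or CON3 (adjusted p = 0.0894 to 0.107). That of Mup10 ended without CR1, CR2, CON2 or CON3 (adjusted p = 0.062 to 0.116). That of Mup3 ended without CR1, CR2 or CON2 (adjusted p = 0.0882 to 0.176).

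Secreted liver factors had 2 of 16 members up and none down, against 2.05% and 2.68% of all genes. Tsku encodes tsukushi, a small proteoglycan that liver secretes, and had 147, 181 and 47.4 CPM in CR livers, against 5.71, 4.35 and 9.75 CPM in control livers, with every CR liver above every control liver (log2 fold change 4.25 ± 0.77, adjusted p = 0.00539). Rbp4, the retinol carrier of plasma, rose by 0.76 ± 0.18 (adjusted p = 0.0199). Among 18 genes of iron handling 1 rose, against 2.05% of all genes. Tfrc, the transferrin receptor that takes up iron, had 142, 41.2 and 26.0 CPM in CR livers, against 8.30, 6.02 and 8.00 CPM in control livers, with CR1 far above CR2 and CR3 but no overlap with the controls (log2 fold change 3.23 ± 0.61, adjusted p = 0.00669). Without CR1 its log2 fold change was 2.18, adjusted p = 0.0335. The call of Tsku held without each single library. That of Rbp4 ended without CR2, CR3, CON1 or CON3 (adjusted p = 0.0705 to 0.0837).

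Several of the largest rises belonged to no list. Pcp4l1, a calmodulin-binding protein, had 114, 309 and 161 CPM in CR livers, against 23.0, 32.0 and 15.5 CPM in control livers (3.05 ± 0.47, adjusted p = 0.00159). Col27a1, a fibrillar collagen, had 57.9, 96.1 and 26.0 CPM in CR livers, against 8.83, 10.4 and 8.57 CPM in control livers (2.70 ± 0.52, adjusted p = 0.00669). Parp16, an ADP-ribosyltransferase of the ER membrane, had 42.4, 91.7 and 57.4 CPM in CR livers, against 13.0, 18.7 and 21.8 CPM in control livers (1.84 ± 0.26, adjusted p = 0.000564). None of the 3 overlapped between groups. Ppp1r1b, the phosphatase inhibitor DARPP-32, had 9.32, 10.5 and 11.0 CPM in CR livers, against 1.67, 2.05 and 2.53 CPM in control livers (2.30 ± 0.32, adjusted p = 0.000535). Zfp970, a zinc finger gene with close paralogues, had 55.2, 29.4 and 23.9 CPM in CR livers, against 9.26, 5.496 and 6.86 CPM in control livers (2.33 ± 0.51, adjusted p = 0.015). The calls of Pcp4l1, Col27a1, Parp16 and Ppp1r1b held without each single library. That of Zfp970 ended without CR1 or CON2 (adjusted p = 0.063 to 0.0681).

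Among the falls outside the lists, Enpp3, an ectonucleotidase, had 8.28, 9.53 and 11.5 CPM in CR livers, against 39.1, 33.2 and 46.8 CPM in control livers (log2 fold change -2.02 ± 0.24, adjusted p = 0.000281), a call that held without each single library. Gnat1, a transducin subunit (-2.34 ± 0.47, adjusted p = 0.00806), Smad9, an effector of BMP signals (-2.19 ± 0.46, adjusted p = 0.00974), Nox4, a hydrogen peroxide-forming oxidase (-2.14 ± 0.43, adjusted p = 0.00739), Grid1, a glutamate receptor subunit (-1.89 ± 0.44, adjusted p = 0.0179), and the antisense gene Hectd2os (-1.94 ± 0.50, adjusted p = 0.0292) fell as well. Csrp3 (-1.97 ± 0.38, adjusted p = 0.00636) and Neb (-1.92 ± 0.47, adjusted p = 0.0232) are known from striated muscle. The skeletal muscle markers whose median count over all libraries was at most 10 summed to 11, 2 and 2 counts in CR livers and 2, 4 and 3 counts in control livers. The call of Smad9 ended without CR2 or CON1 (adjusted p = 0.0583 to 0.0773), with a log2 fold change of -1.43 without CON1. That of Grid1 ended without CR1, CR2 or CON2 (adjusted p = 0.0595 to 0.0736). That of Hectd2os ended without CR1, CR2, CR3, CON2 or CON3 (adjusted p = 0.0676 to 0.117). That of Neb ended without CR2, CR3, CON1 or CON3 (adjusted p = 0.0623 to 0.12). Rrm2, a ribonucleotide reductase subunit, was the single call among 21 cell cycle genes, against 4.72% of all genes called (-1.64 ± 0.40, adjusted p = 0.0211). The call of Rrm2 ended without CR1, CR2, CR3, CON1 or CON2 (adjusted p = 0.0547 to 0.0859).

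Lists of growth hormone, IGF and insulin signalling (23 genes), acute phase proteins (22), lipoproteins (23), the proteasome (33) and p53 targets (14) had no called member in edgeR's quasi-likelihood test. At an unadjusted p under 0.05 they had 2, 3, 1, 2 and 5 members, and DESeq2 called 0, 1, 1, 2 and 4. Their median log2 fold changes were -0.04, -0.14, 0.19, 0.10 and 0.29. Fgf21, a fasting-induced hepatokine, had 0.659, 1.54 and 1.003 CPM in CR livers, against 3.25, 2.34 and 4.02 CPM in control livers (-1.59 ± 0.78, adjusted p = 0.273). Every CR liver lay below every control liver for Fgf21, which did not pass. Igfbp1 had 12.4, 56.0 and 38.4 CPM in CR livers, against 16.7, 7.65 and 19.4 CPM in control livers (1.29 ± 0.95, adjusted p = 0.492). Its groups overlapped, with a wide spread.

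The adrenal cortex makes glucocorticoids and aldosterone, and the enzymes of their last steps mark that tissue. In CR1 the counts were 885 for Cyp11b1, 47 for Cyp11b2, 32 for the ACTH receptor Mc2r and 71 for Nr5a1, and each of these 4 genes had 0 counts in CR2, CR3 and the 3 control libraries. Cyp11a1 had 497 counts in CR1 and at most 1 in the other 5 libraries, Cyp21a1 1209 and at most 4, and Mgarp 69 and at most 1. Star had 949 counts in CR1 and at most 36 elsewhere, Akr1b7 284 and at most 33, and Hsd3b1 1206 and at most 43. Mrap, which liver itself expresses, had 1628 counts in CR1 and 850 to 1485 in the others. The 9 cortex markers whose median count over all 78 libraries was at most 10 summed to 4300, 39 and 80 counts in CR livers and 23, 19 and 17 in control livers. In CR1 that sum was 0.0225% of all assigned counts.

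Markers of the adrenal medulla were also above the other libraries in CR1. Chga had 48 counts, Chgb 90, Th 14, Dbh 6, Pnmt 4 and Npy 5. The 7 medulla markers with a median count of at most 10 over all libraries summed to 168, 1 and 3 counts in CR livers and 4, 1 and 0 in control livers. Slc18a1, another medulla marker, was detected in all 6 libraries. Of 8 fat cell markers Ucp1, of brown fat, had 210 counts in CR1 and 0 in the other 5 libraries, Adipoq 117 and at most 12, Plin1 106 and at most 6, Retn 103 and at most 9, Lep 12 and at most 1, and Cfd 381 and at most 41. Lipe had 384 counts in CR1 and at most 363 elsewhere. Car3, which liver itself expresses strongly, had 25658 counts in CR1, between the lowest (15291) and the highest (44485) of the others. The sum of the 8 was 1357 to 2051 CPM in CR livers and 787 to 2259 CPM in control livers, with CR1 at 1409 CPM. Kidney, pancreas and ovary markers did not stand apart in CR1, with sums of 7, 5 and 21 counts, against 11, 2 and 15 in CR2.

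**Figure D4:**
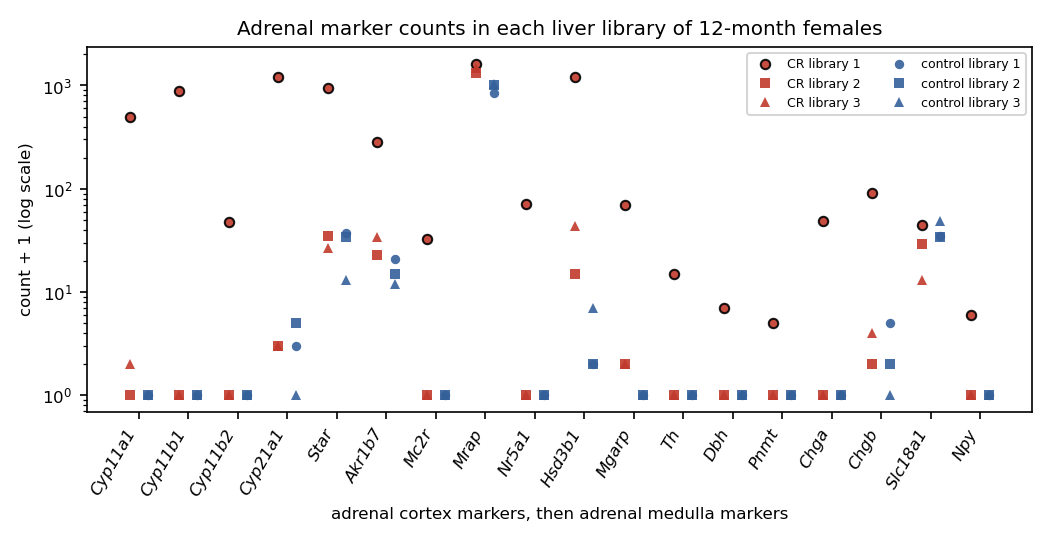
Counts plus 1 on a log axis for 11 adrenal cortex and 7 adrenal medulla markers in each liver library of 12-month females, CR libraries to the left of control libraries. CR1, outlined in black, stands apart above the other 5 libraries for each gene but Mrap and Slc18a1, where it lies close to them.

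With all libraries, 4 of the 5 cortex markers tested were called higher in CR livers, against 2.05% of all genes: Cyp21a1 (log2 fold change 7.56 ± 1.805, adjusted p = 0.023), Hsd3b1 (7.22 ± 1.49, adjusted p = 0.0159), Star (3.67 ± 0.85, adjusted p = 0.0195) and Akr1b7 (2.97 ± 0.78, adjusted p = 0.0306). Without CR1 the values were 0.30 for Cyp21a1, 0.49 for Star and 1.19 for Akr1b7, none of them called, and Hsd3b1 was 3.64 (adjusted p = 0.0419). The call of Cyp21a1 ended without CR1, CON1, CON2 or CON3 (adjusted p = 0.0765 to 0.921). That of Star ended without CR1, CON1, CON2 or CON3 (adjusted p = 0.0634 to 0.487). That of Akr1b7 ended without CR1, CON1, CON2 or CON3 (adjusted p = 0.0934 to 0.333). That of Hsd3b1 ended without CON1 or CON2 (adjusted p = 0.0699 to 0.0768). Of the genes that rose, 10 had a CPM in CR1 at least 2-fold above both CR2 and CR3, against 5 for CR2 and 0 for CR3. The 10 were Akr1b7, Cyp21a1, Hsd3b1, Star, Kcnk3, Parm1, Scd2, Tfrc, Gm14387 and Gm14421, chosen after their values were seen.

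Without CR1 352 genes (2.54%) were called, 189 up and 163 down, and 308 of the 644 were still called in the same direction. With every library of the 12-month fit left out that had over 1000 counts of another tissue's markers, 336 genes were called, 186 up and 150 down. In the fit without CR1, Nr1d1 (-5.76, adjusted p = 0.00352), Cry1 (3.00, adjusted p = 8.73e-05), Hsp90aa1 (2.17, adjusted p = 0.017) and Iigp1 (-1.25, adjusted p = 0.00547) kept their calls, with these log2 fold changes. Nr1d2 (-2.22, adjusted p = 0.0973), Per2 (1.93, adjusted p = 0.139), Xaf1 (-1.66, adjusted p = 0.0725), Zbp1 (-1.61, adjusted p = 0.0579), Gbp3 (-1.43, adjusted p = 0.0779), Chordc1 (0.73, adjusted p = 0.161) and Hspd1 (0.58, adjusted p = 0.058) of the same groups lost theirs.

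CR livers of 12-month males differed from control male livers at 422 genes (3.09%), 241 up (1.77%) and 181 down (1.33%). No gene had an effect that differed between females and males at an adjusted p under 0.05 in edgeR's quasi-likelihood test. At an unadjusted p under 0.05 there were 453 of the 13639 genes tested. DESeq2 called 4, each with a lower effect in females. Of the 644 female calls 191 were also called in males in the same direction, 29.7% of the female and 45.3% of the male calls, and none in the opposite direction. Counts of the 2 sexes rest on separate libraries but on 1 pooled estimate of the spread.

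The groups named above behaved as follows in males. Of 28 heat shock chaperones 12 rose in CR males, against 1.77% of all genes, with a median of 0.83, and Hsp90aa1 had 630, 658 and 477 CPM in CR males, against 142, 230 and 144 CPM in control males. Of 37 interferon genes 5 fell, against 1.33% of all genes, with a median of -0.60, and Iigp1 had 155, 92.1 and 121 CPM in CR males, against 272, 205 and 280 CPM in control males. Of 24 targets of PPAR alpha, the fatty acid receptor, 5 rose in males, against 1.77% of all genes. In females 1 of them rose and 1 fell, against 2.05% and 2.68% of all genes. Nr1d1 had an effect of -4.84 ± 0.68, adjusted p = 0.00126 in males, and the difference of the sexes was -0.997 ± 0.89, adjusted p = 1. Tsku had 127, 167 and 269 CPM in CR males, against 30.8, 38.5 and 40.6 CPM in control males, an effect of 2.37 ± 0.70, adjusted p = 0.0792, and the female minus male difference was 1.87 ± 0.97, adjusted p = 1.

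The acarbose and rapamycin groups share the control libraries with the CR females, so their values are only set beside each other. In edgeR's quasi-likelihood test no gene was called between acarbose and control females, and 2 genes (0.0147%) rose with rapamycin. At an unadjusted p under 0.05 there were 802 of 13639 genes for acarbose and 1090 of 13639 for rapamycin. Hsp90aa1 had 472, 479 and 376 CPM in CR females, 175, 111 and 186 CPM in acarbose females, 297, 299 and 167 CPM in rapamycin females and 75.4, 78 and 133 CPM in control females. Every CR liver lay above all livers of the other 3 groups. Iigp1 had 137, 107 and 126 CPM in CR females, 205, 277 and 271 CPM in acarbose females, 265, 257 and 358 CPM in rapamycin females and 261, 257 and 318 CPM in control females, and the CR livers were below all others.

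The effect of CR at 12 months, after 8 months of restriction, was then set against that at 6 months, after 2 months, in 1 model over 60 libraries of both ages and 15159 genes. Age and duration of restriction differ together between these groups and cannot be told apart. In this fit 1318 genes (8.69%) were called at 12 months, 563 up (3.71%) and 755 down (4.98%). At 6 months 1965 (13%) were called, 916 up (6.04%) and 1049 down (6.92%). Of these, 227 were called at both ages in the same direction and 78 in opposite directions. The effect itself differed at 1020 genes (6.73%), with 553 (3.65%) higher and 467 (3.08%) lower at 12 months, and all 78 opposite calls were among them. The library CR 6-month female 2 held 26412 counts over skeletal muscle markers. Without it 711 genes differed, and without every library with other-tissue markers 577 did. The count was also 668 without CON1 of 12 months and 651 without control female 1 of 6 months. Higher and lower at 12 months were 575 and 314 genes without CR1, 624 and 527 without CR3 of 12 months. They were 394 and 274 without CON1, 482 and 287 without CON2 of 12 months. Without CR female 1 or 2 of 6 months they were 477 and 300 or 413 and 298. Without control female 1, 2 or 3 of 6 months they were 422 and 229, 625 and 336 or 434 and 402.

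The effect of CR on heat shock chaperones differed between ages at 8 of 28 members. It was higher at 12 months for these 8 and lower for none, against 3.65% and 3.08% of all genes, and the median difference was 0.73 against -0.05 over all genes. Hsp90aa1 had an effect of 2.21 ± 0.37 at 12 months and -0.19 ± 0.35 at 6 months (2.40 ± 0.51, adjusted p = 0.00207). Its CPM were 157, 190.5 and 151 in CR livers of 6 months, against 169, 171 and 229 in control livers of 6 months, which overlapped. Hsp90ab1 (1.14 ± 0.27, adjusted p = 0.00688), Stip1 (1.25 ± 0.30, adjusted p = 0.00755), Cacybp (0.91 ± 0.24, adjusted p = 0.0148), Hspa4l (1.41 ± 0.41, adjusted p = 0.0295), Ahsa1 (1.02 ± 0.26, adjusted p = 0.0093), Hspa4 (0.88 ± 0.15, adjusted p = 0.000278) and Chordc1 (1.06 ± 0.34, adjusted p = 0.0439) were the others. Without CON1 of 12 months 5 of the 28 differed. The calls of Cacybp (without CON1 of 12 months), Hspa4l (without 5 of the 12 libraries, adjusted p = 0.0513 to 0.0961) and Chordc1 (without 8 of them, adjusted p = 0.0617 to 0.146) ended when single libraries were left out, and the other 5 held.

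ER chaperones and the proteasome, which were nearly without calls at 12 months, fell in part at 6 months. Of 25 ER folding genes 13 fell at 6 months, against 6.92% of all genes. For 8 the effect was higher at 12 months, against 3.65% of all genes. Hspa5 had 854, 991 and 674 CPM in CR livers and 614, 433 and 591 CPM in control livers of 12 months, against 335, 269 and 311 CPM in CR livers and 859.6, 649 and 1696 CPM in control livers of 6 months, a difference of effects of 2.43 ± 0.47, adjusted p = 0.000934. Hyou1 (2.99 ± 0.56, adjusted p = 0.000591), Manf, a secreted ER stress factor (3.03 ± 0.64, adjusted p = 0.00229), Creld2 (3.55 ± 0.88, adjusted p = 0.00929), Dnajb11 (1.85 ± 0.36, adjusted p = 0.00102), Syvn1, a ubiquitin ligase of ER-associated degradation (1.98 ± 0.55, adjusted p = 0.0209), the calcium-binding chaperone Calr (1.29 ± 0.37, adjusted p = 0.0252) and the disulfide isomerase P4hb (0.64 ± 0.19, adjusted p = 0.034) were the others. Without control female 3 of 6 months, the highest for Hspa5, 4 of the 25 differed, and without control female 2 of 6 months 13 did. Without that control 3 the calls of Creld2 (adjusted p = 0.0638), Calr, P4hb and Syvn1 ended. Those of Calr, P4hb and Syvn1 ended without 4, 5 and 2 of the 12 libraries (adjusted p up to 0.101, 0.107 and 0.11). The others held. Control livers of 6 months were spread widely for Hspa5, with the highest value more than 2-fold above the lowest.

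Of 33 proteasome subunits 23 fell at 6 months, against 6.92% of all genes, and none at 12 months, against 4.98%. The effect differed at 17, all higher at 12 months, against 3.65% of all genes. Psmd1, a scaffold of the regulatory particle, had effects of 0.23 ± 0.14 at 12 months and -1.02 ± 0.14 at 6 months (1.25 ± 0.19, adjusted p = 6.09e-05). Psmd14, its deubiquitinase, had 0.31 ± 0.15 at 12 months and -1.13 ± 0.15 at 6 months (1.43 ± 0.22, adjusted p = 5.41e-05). Psme3, an activator of the core particle outside the list, differed by 0.80 ± 0.12, adjusted p = 5.33e-05. Beside them, Srxn1, which restores oxidised peroxiredoxins (1.98 ± 0.27, adjusted p = 1.23e-05), Rrp12, a ribosome export factor (2.03 ± 0.25, adjusted p = 1.41e-06), Morf4l2 (1.49 ± 0.22, adjusted p = 4.82e-05), and the translation initiation factors Eif3b (1.06 ± 0.16, adjusted p = 5.89e-05) and Eif4e (1.03 ± 0.15, adjusted p = 5.33e-05) were higher at 12 months.

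Among 24 lipogenic genes the effect was lower at 12 months for 6 and higher for 1, against 3.08% and 3.65% of all genes. At 6 months 11 of them rose, against 6.04% of all genes. Thrsp (SPOT14), a regulator of fatty acid synthesis, had an effect of 0.71 ± 0.73 at 12 months and 4.90 ± 0.86 at 6 months (-4.195 ± 1.08, adjusted p = 0.0121). Its CPM were 357, 570.3 and 373 in CR livers and 211, 507 and 77.6 in control livers of 12 months, against 148, 158 and 269 in CR livers and 3.50, 5.85 and 9.90 in control livers of 6 months. Pklr, the liver pyruvate kinase (-2.15 ± 0.49, adjusted p = 0.00436), Acss2 (-1.83 ± 0.41, adjusted p = 0.00409), the transcription factors Srebf1 (-1.56 ± 0.47, adjusted p = 0.0329) and Mlxipl (ChREBP, -1.07 ± 0.31, adjusted p = 0.0239) and the citrate carrier Slc25a1 (-0.76 ± 0.24, adjusted p = 0.0418) were also lower at 12 months, and Agpat2 was higher (1.03 ± 0.31, adjusted p = 0.0352). Without CON2 of 12 months 2 of the 24 were lower and Thrsp was not called (adjusted p = 0.0649). Without CR1 of 12 months, control female 1 or CR female 2 of 6 months 3 were lower. Single libraries also ended the calls of Srebf1 and Slc25a1 (8 of 12 fits each), Agpat2 (7) and Mlxipl (6), while Pklr and Acss2 held. Genes of fatty acid oxidation were higher at 12 months for 9 of 27, against 3.65% of all genes, with Ehhadh (1.70 ± 0.45, adjusted p = 0.0137) and Cpt2 (1.04 ± 0.19, adjusted p = 0.000571) among them. That count was 4 without CON1 of 12 months and 5 without control female 1 or 3 of 6 months. For autophagy 6 of 30 were lower at 12 months, against 3.08% of all genes, among them Ulk1 (-1.47 ± 0.32, adjusted p = 0.00237) and Gabarapl1 (-1.23 ± 0.29, adjusted p = 0.00519). Without CON1 of 12 months or CR female 1 of 6 months 3 were lower. The differences of Ehhadh, Cpt2, Ulk1 and Gabarapl1 held without each single library.

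**Figure D5:**
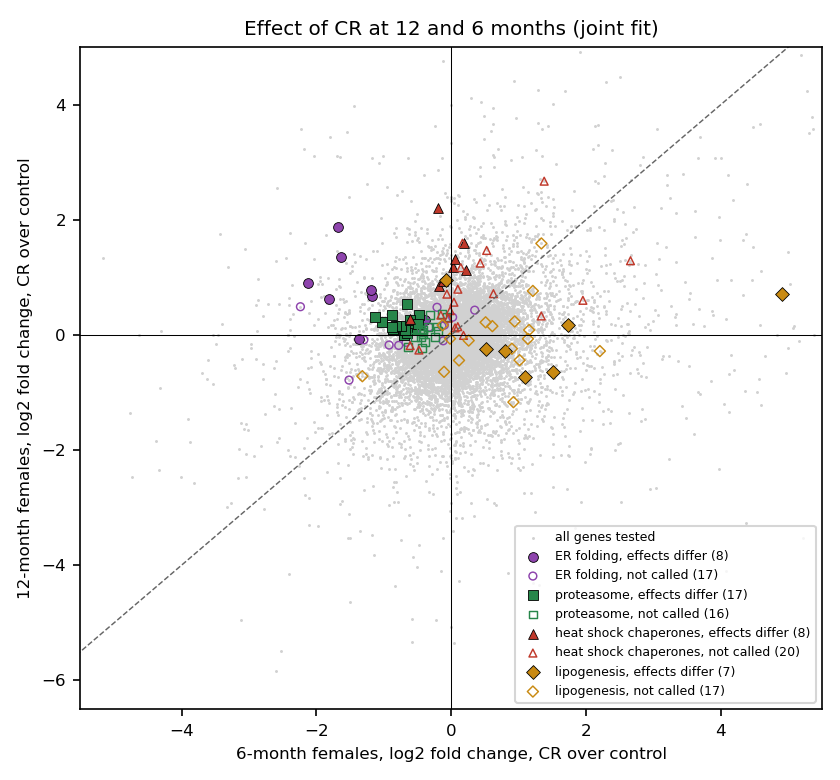
Log2 fold change of CR over control in females of 12 months (y axis) against that in females of 6 months (x axis) for each gene of the joint fit, with 4 gene lists in colour; filled symbols have effects that differ between ages at an adjusted p under 0.05, and the dashed line marks equal effects. The 17 proteasome and 8 ER folding genes with differing effects lie left of 0 and above the dashed line, and the 8 heat shock chaperones with differing effects lie above that line. Beyond the axes lie 86 genes.

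For interferon-stimulated genes 0 of 37 were called for the difference between ages by edgeR's quasi-likelihood test, and 8 had an unadjusted p under 0.05. Without CR3 of 12 months or control female 3 of 6 months 2 were called lower at 12 months, and without CR1 of 12 months 1 was. At 6 months 12 of the 37 fell, against 6.92% of all genes. The median effect of the 37 was -0.74 at 12 months and -0.69 at 6 months in the joint fit. Of the clock genes Nr1d1 fell further at 12 months (-5.84 ± 0.59, against -2.60 ± 0.48 at 6 months, a difference of -3.24 ± 0.71, adjusted p = 0.00305). Nr1d2 fell at 12 months (-2.23 ± 0.42), and its effect at 6 months was 0.43 ± 0.40 (-2.66 ± 0.57, adjusted p = 0.00262). Both differences held without each single library. Of the 19 clock genes 0 were higher and 2 lower at 12 months, against 3.65% and 3.08% of all genes. Without CON3 of 12 months 4 of the 19 were higher and 4 lower, against 669 and 424 genes over all genes tested. Every other fit without a single library gave the same clock counts as the fit of all libraries. Nr1d1 had 35.9, 19.7 and 13.4 CPM in CR livers of 6 months, against 114, 159 and 145 CPM in control livers of 6 months. Dbp had 61.2, 57.2 and 39.8 CPM in those CR livers, against 3.32, 26.1 and 39.1 CPM in those control livers, where control 1 of 6 months was low. The 8 genes with the smallest adjusted p in the lower direction were Fbxl20, a ubiquitin ligase subunit (-2.07 ± 0.25, adjusted p = 1.33e-06), Enpp3 (-2.11 ± 0.27, adjusted p = 4.38e-06), Gle1, an mRNA export factor (-1.06 ± 0.15, adjusted p = 2.19e-05), Cdk2 (-1.47 ± 0.22, adjusted p = 5.33e-05), Ap1g2, a subunit of the AP-1 adaptor (-1.55 ± 0.24, adjusted p = 5.89e-05), Abca8a, a lipid transporter (-2.25 ± 0.35, adjusted p = 6.09e-05), Calcoco1 (-1.77 ± 0.27, adjusted p = 6.09e-05) and Paox, a polyamine oxidase (-1.76 ± 0.27, adjusted p = 6.09e-05).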

How the data were processed

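Liver poly(A) RNA had been sequenced from TruSeq v2 libraries, per the labels' protocols, and the values used are raw read counts per gene that the authors deposited in 1 table of 43629 genes and 78 libraries. Per the submitters' processing notes, the tools were bcl2fastq 1.8.4, Trimmomatic 0.32, STAR 2.5.2b and featureCounts 1.5, with the builds GRCm38 and mm10. The strand setting and the handling of multi-mapped reads are not given in the sources used here. Overlapping genes (Nr1d1 and Thra, Dbp and Sphk2, Abcg5 and Abcg8, Tap1 and Psmb9, Hectd2os and Hectd2, Slc51b and Rasl12, Dusp1 and Ergic1, Agpat2 and Egfl7, Sult1a1 and Sgf29, Tspan4 and Chid1) and near-identical paralogues are therefore less certain.

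Tests used edgeR 4.0.16 under R 4.3.3, with filterByExpr on the groups, TMM scaling and a robust quasi-likelihood fit of 1 coefficient per group. The main fit, which also gave the female minus male difference, took all 24 libraries of 12 months in 8 groups (13639 genes). It included males given acarbose at 1000 ppm or rapamycin at 14 ppm. The joint fit for the difference between ages took 60 libraries in 20 groups (15159 genes). It added controls and 40% restricted mice of 6 months, both sexes. Other 6-month groups of both sexes received acarbose at 1000 ppm or rapamycin at 42 ppm. The rest, labelled PROT (1200 ppm) and EST (14.4 ppm), were 6-month mice of both sexes. All groups of a fit shared the estimate of spread behind its p-values and SEs. Genes were called at a Benjamini-Hochberg adjusted p under 0.05. Fold changes are log2 values of CR over control, each with an SE taken from the quasi-likelihood F statistic. CPM of single genes are TMM-scaled, while summed CPM of marker lists are scaled to the total counts of a library alone. The p-values weigh each difference against the spread between labelled replicates, estimated over all groups of the fit and not from the compared groups alone.

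The comparison, the gene lists and the naming rule were chosen with earlier results of these data known. The rule named the 15 called genes per direction that changed most, given no overlap between groups and a log2 CPM averaging 2 or more, leaving out predicted and clone names. It added at most 6 called genes from each list, by adjusted p, all clock genes, all adrenal markers and 8 genes per direction for each difference of effects. List members named although they did not pass, and those named for the difference between ages beyond the 8, were chosen after their values were seen. Some genes that the rule names are not reported here. Gene names came from GENCODE M21 (42548 of 43629 IDs matched) and promoters from RefSeq on GRCm38.p6 (32851 promoters of 27025 genes).

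Alternatives were the size factors of DESeq2 within edgeR (RLE), all genes without a count filter, DESeq2 1.42.0 itself, a replicate block, fits of fewer groups and each library left out. A fit without libraries holding over 1000 counts of other-tissue markers was added after seeing the data. The steps were tested on simulated data.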

Additional observations from a re-analysis of the deposited data

Results flagged for a closer look

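The effect of calorie restriction differed between females of 12 and of 6 months at 1020 genes in the test of the difference itself (edgeR's quasi-likelihood test, joint fit, adjusted p under 0.05, n = 3 libraries in each of 4 groups). The values below are log2 effects at 12 months minus those at 6 months, each the CR over control fold change of its age. The difference was positive for Rrp12 (2.03 ± 0.25, adjusted p = 1.41e-06), Srxn1 (1.98 ± 0.27, adjusted p = 1.23e-05), Morf4l2 (1.49 ± 0.22, adjusted p = 4.82e-05), Psmd14 (1.43 ± 0.22, adjusted p = 5.41e-05), Psmd1 (1.25 ± 0.19, adjusted p = 6.09e-05), Eif3b (1.06 ± 0.16, adjusted p = 5.89e-05), Eif4e (1.03 ± 0.15, adjusted p = 5.33e-05) and Psme3 (0.80 ± 0.12, adjusted p = 5.33e-05). Psmd1 had 94.5, 112 and 78.9 CPM in CR livers and 78.0, 73.4 and 92.3 CPM in control livers of 12 months, and 57.5, 57.9 and 59.1 CPM in CR livers and 123, 105 and 127 CPM in control livers of 6 months. At 6 months every CR liver lay below every control liver, while at 12 months the groups overlapped.

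The difference was negative for Abca8a (-2.25 ± 0.35, adjusted p = 6.09e-05), Enpp3 (-2.11 ± 0.27, adjusted p = 4.38e-06), Fbxl20 (-2.07 ± 0.25, adjusted p = 1.33e-06), Calcoco1 (-1.77 ± 0.27, adjusted p = 6.09e-05), Paox (-1.76 ± 0.27, adjusted p = 6.09e-05), Ap1g2 (-1.55 ± 0.24, adjusted p = 5.89e-05), Cdk2 (-1.47 ± 0.22, adjusted p = 5.33e-05) and Gle1 (-1.06 ± 0.15, adjusted p = 2.19e-05). Abca8a had 57.0, 83.3 and 68.8 CPM in CR livers and 131, 89.6 and 101 CPM in control livers of 12 months, and 208, 185 and 175 CPM in CR livers and 69.1, 46.7 and 68.1 CPM in control livers of 6 months. Every CR liver lay below every control liver at 12 months and above every control liver at 6 months. All 16 genes kept their direction and their call under each alternative tried, the fits without single libraries included.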

How the results depend on the processing

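The count of 644 genes was 1028 with DESeq2, 389 without the filter on low counts, 425 with the 12-month female groups alone, 148 with the compared groups alone and 336 without the libraries with other-tissue markers, and 186 to 659 with single libraries left out. The cause was not tested, and neither was the part of the fewer libraries in the smaller fits. The count of 0 for the difference between sexes was 4 with DESeq2 and 1 without the filter. The 1020 genes for the difference between ages became 646 without the filter, 439 with the compared groups alone and 577 without the libraries with other-tissue markers, and 651 to 1151 with single libraries left out. A replicate block, in which the numbers do not pair the animals (correlation of deviations 0.113, -0.107 and -0.157 for the 3 numbers), gave 590, 0 and 1048 genes, and no CR library correlated best with the control library of its own number. In all 1326 pairs of a named gene and an alternative the direction was kept, and of 80 called named genes 24 kept their call under every alternative. At 17742947 to 19860614 counts and 3 libraries per group, differences within the SEs given were not detectable. Some differences well beyond their SEs, those of Hspa8, Hsph1 and Hspe1 among them, did not pass either.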

Other observations

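Markers of bile duct cells lay higher in CR livers without passing. Of 7 tested cholangiocyte markers 6 were positive, and the median log2 fold change was 0.88. In 4 the CR livers stood above all control livers, against 9.52% of all genes. None was called by edgeR's quasi-likelihood test (3 at an unadjusted p under 0.05, 1 called with DESeq2). Endothelial markers were positive in 11 of 12 with a median of 0.30, and none was called (3 at an unadjusted p under 0.05, none with DESeq2). Other genes varied widely within a group. Cdkn1a, the p21 inhibitor of the cell cycle, had 8.99, 70.5 and 8.67 CPM in CR livers, against 3.25, 1.34 and 5.68 CPM in control livers, with CR2 far above all others (log2 fold change 3.10 ± 1.17, adjusted p = 0.145). Nnmt, which methylates nicotinamide, had 146, 38.6 and 167 CPM in CR livers, against 7.82, 55.5 and 6.76 CPM in control livers, with CON2 above CR2 (2.32 ± 1.18, adjusted p = 0.294). These genes were chosen after their values were seen.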
